A study of Mus musculus with 6 samples.

Results

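A set of 7 genes of antigen presentation by major histocompatibility complex (MHC) class II were followed in microglia lacking miR-137: the class II chain genes H2-Aa, H2-Ab1 and H2-Eb1, the invariant chain gene Cd74, the peptide exchange genes H2-DMa and H2-DMb1, and Ciita, the class II transcriptional activator. They were chosen by name and are 7 of the 17459 genes of the deposited count table, and all 7 passed the filter on low counts. RNA sequencing was done on total RNA of microglia isolated from the brains of male C57BL/6J mice aged 8 weeks. The cKO group (3 libraries) had the genotype Mir137loxP/loxP;Tmem119-CreERT2, and the cWT group (3 libraries) had Mir137+/+;Tmem119-CreERT2. Both groups thus carried the Cre recombinase driven from the microglial gene Tmem119, and both received tamoxifen for 7 days from 7 to 8 weeks of age. The labels name 4 mice for the isolation without saying how they fall into the replicates, so the p-values take in only the variation among these libraries, part or all of which may be technical. The deletion of Mir137 was not checked here.

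MHC class II molecules carry peptides from ingested proteins to the cell surface, where CD4 T cells read them. Each molecule is a pair of an alpha and a beta chain that is assembled around the invariant chain, and the DM proteins then exchange a remnant of that chain for a peptide. Transcription of these genes runs through CIITA, which binds no DNA itself but is held at their promoters by the RFX, CREB and NF-Y factors sitting on the X and Y boxes. Microglia of the healthy adult brain are known for low class II levels, while macrophages of the brain borders and dendritic cells carry more.

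In cKO microglia Ciita and Cd74 were lower. With TMM scaling, described below, the chain genes were close to their cWT level, and H2-DMb1 and H2-DMa were higher. Where trends with transcript length and GC content were also taken out, the chain genes were called lower, H2-DMb1 higher, and H2-DMa was not called. Ciita averaged 1.21 ± 0.0573 CPM in cKO and 8.14 ± 1.18 CPM in cWT, and Cd74 averaged 206 ± 20.1 CPM in cKO and 468 ± 27.1 CPM in cWT (SD, n = 3 each). H2-DMb1 averaged 206 ± 9.92 CPM in cKO and 85.4 ± 3.79 CPM in cWT (SD, n = 3 each). CPM is a count relative to the size of its library, scaled between libraries with TMM factors, which assume that most genes do not change. Of the 7 genes, 3 were called lower and 2 higher (edgeR quasi-likelihood test, adjusted p under 0.05 over all genes tested), in a comparison where 36.5% of the 13490 genes tested were called lower, 35.6% higher and 72.1% in either direction. With so large a share, a call by itself does not set these genes apart. The genotypes did not overlap for 5 of the 7, against 74.6% of all genes tested, and 3 of these were lower in cKO, against 37.9%.

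**Figure D1:**
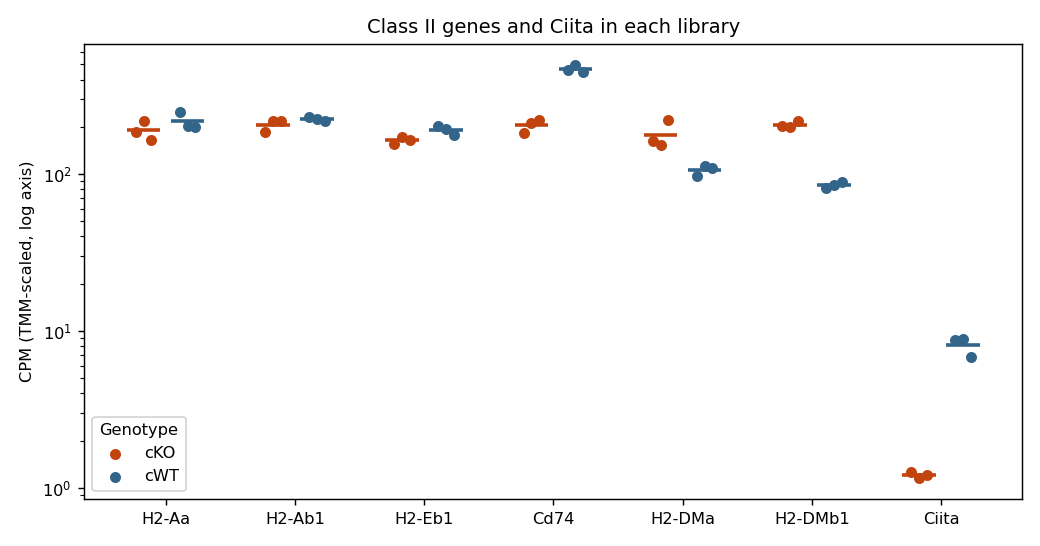
CPM of each gene in the 3 cKO libraries (rust red) and the 3 cWT libraries (blue) on a log axis, with the mean of each group as a bar. Cd74 and Ciita lie lower in every cKO library, H2-DMa and H2-DMb1 lie higher, and the points of H2-Aa and of H2-Ab1 overlap between the genotypes.

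Total counts were 12068698 to 15212806 in the cKO libraries and 16503817 to 17482042 in the cWT libraries, and the 7 genes together took 0.0913% to 0.105% of them in cKO and 0.141% to 0.155% in cWT. With scaling by total count alone, log2 fold changes over all genes had a median of -0.42, against -0.02 with TMM, and 33.1% of the calls were then increases, compared with 49.4% with TMM. Fold changes also followed transcript length in these libraries, with a Spearman correlation of -0.72 across genes, which are not independent replicates. The fold changes of the 7 genes are therefore given again from a fit whose per-library offsets take out trends with length and GC content (below, the offsets). Those of other genes are given again in most cases, and a value without its counterpart need not hold with the offsets. In the fit with the offsets 27.3% of 13406 genes were called lower, 29.9% higher and 57.2% in either direction. A correlation of -0.084 with length was left, and 5 of the 7 genes were called lower and 1 higher. What gave rise to the length trend was not tested.

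**Figure D2:**
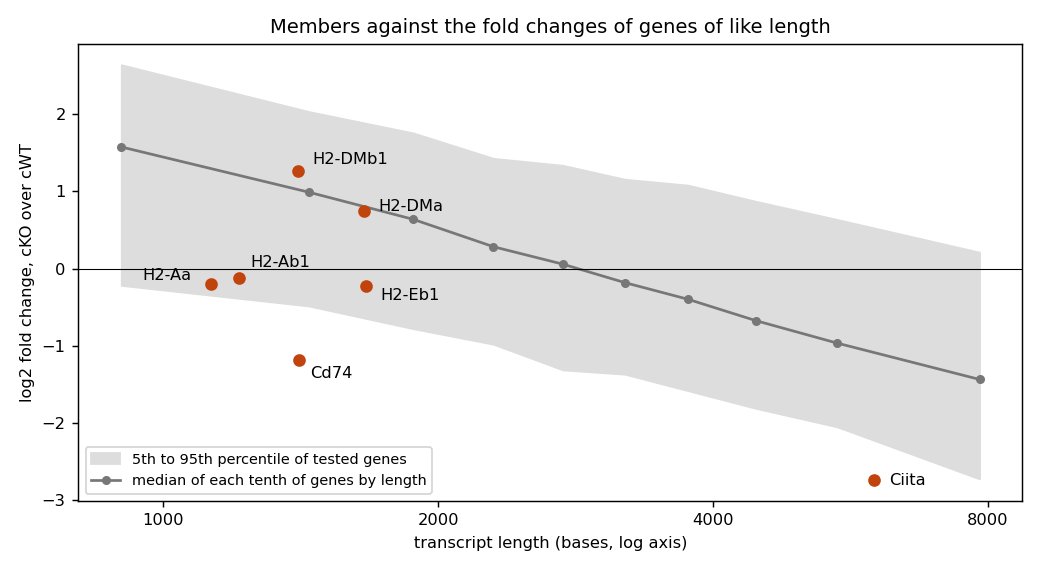
Log2 fold change of cKO over cWT against transcript length in bases on a log axis. The grey line joins the medians of 10 equal groups of tested genes ordered by length, the band runs from their 5th to their 95th percentile, and rust red points are the 7 genes. H2-DMa and H2-DMb1 lie near the line, the 3 chain genes lie in the lower part of the band, and Cd74 and Ciita lie below it.

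The X and Y boxes through which CIITA is recruited can be read in the promoters of this family, and they are shown because the genes that carry them did not move together. The RefSeq promoter table (GRCm38.p6, from 250 bases before to 50 bases after the start of transcription) held 8 of the 11 class II genes looked up, and 7 of them had the Y box sequence TGATTGG on the coding strand, H2-DMa being the exception. TGATTGG or its reverse complement CCAATCA occurred in 7.82% of all 32851 promoter windows. In 6 of the 7 genes TGATG or TGACG, searched for as part of the X2 box, ended 15 to 21 bases before it. This spacing was set after these promoters were seen and was found on either strand in 0.155% of all windows. H2-Eb1 and H2-DMb1 each had 2 overlapping matches, and which of them belongs to the X2 box was not tested. The stretches run 5′ to 3′ on the coding strand from 60 bases before the Y box to 10 after it, with the motifs found in capitals.
H2-Aa, chr17:34287857-34287933, minus strand: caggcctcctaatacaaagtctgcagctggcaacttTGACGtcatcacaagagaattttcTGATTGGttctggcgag
H2-Eb1, chr17:34305746-34305822, plus strand: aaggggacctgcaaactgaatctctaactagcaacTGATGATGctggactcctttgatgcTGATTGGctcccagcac
H2-DMb1, chr17:34153068-34153144, plus strand: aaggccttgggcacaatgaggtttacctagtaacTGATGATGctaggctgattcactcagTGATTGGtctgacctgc
H2-Ob, chr17:34238786-34238862, plus strand: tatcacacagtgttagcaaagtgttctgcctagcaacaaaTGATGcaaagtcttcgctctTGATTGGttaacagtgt
H2-Oa, chr17:34092274-34092350, plus strand: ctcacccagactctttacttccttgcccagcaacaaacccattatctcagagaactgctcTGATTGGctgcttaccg
The Y box lay 50 bases before the start of H2-Aa, 61 before that of H2-Eb1, 63 before that of H2-DMb1, 59 before that of H2-Ob and 45 before that of H2-Oa. H2-Oa was the gene without TGATG or TGACG at that spacing, so only its Y box is marked. H2-Eb2 and H2-DMb2, not printed, had both motifs in this order. The 2 windows of H2-DMa, at starts inside its annotated span, held no Y box sequence, which says nothing of its other starts, and H2-Ab1, Cd74 and Ciita were not in the table.

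The chain genes lie close together on chromosome 17 (RefSeq, GRCm38). H2-Aa (34282744 to 34287823) and H2-Ab1 (34263227 to 34269418) encode the alpha and beta chains of I-A, the class II molecule that C57BL/6 mice make. H2-Eb1 (34305867 to 34316674) encodes the beta chain of I-E, whose alpha chain gene carries a deletion in this strain, so that its transcript is made without a partner chain. H2-Aa stood at 186, 217 and 166 CPM in cKO libraries 1 to 3, against 249, 202 and 201 CPM in cWT libraries 1 to 3. Those groups overlapped, since cKO replicate 2 lay above cWT replicates 2 and 3.

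The log2 fold change of H2-Aa was -0.20 (SE 0.11, 95% interval -0.44 to 0.04, edgeR adjusted p = 0.127), and it was called only without cKO replicate 2 among the fits that left out a library (-0.29, adjusted p = 0.0479). H2-Ab1 had 184, 217 and 219 CPM in cKO, against 231, 223 and 218 CPM in cWT, with a log2 fold change of -0.12 (SE 0.10, 95% interval -0.32 to 0.08, adjusted p = 0.280). The level of cKO replicate 3 reached into the cWT range for this gene. H2-Eb1 had 155, 171 and 166 CPM in cKO and 203, 195 and 177 CPM in cWT, so that all cKO libraries lay lower. H2-Eb1 fell by 0.22 in log2 units (adjusted p = 0.0387, SE 0.09), a call lost without cKO replicate 1 (adjusted p = 0.104), cKO replicate 2 (0.0540), cWT replicate 1 (0.119) or cWT replicate 2 (0.110). Adjusted p-values for H2-Eb1 in the alternatives that kept all libraries ran from 4.17e-11 to 0.118.

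The ratio of the I-A chains overlapped between the genotypes. H2-Aa had 101, 100 and 76.0 counts per 100 counts of H2-Ab1 in cKO, against 108, 90.4 and 92.0 in cWT (two-sided exact permutation p = 0.80), with cKO replicate 3 the lowest library. Per kilobase of transcript H2-Aa averaged 168 ± 22.9 CPM in cKO and 193 ± 24.5 CPM in cWT, and H2-Ab1 170 ± 16.1 CPM in cKO and 185 ± 5.07 CPM in cWT (SD, n = 3 each).

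The chain transcripts are short (1128, 1212 and 1669 bases for H2-Aa, H2-Ab1 and H2-Eb1), and other genes of that length were mostly higher in cKO. When genes were cut by length into 10 groups of equal size, the group with the shortest transcripts, which holds H2-Aa, had a median log2 fold change of 1.58, and the next, which holds H2-Ab1 and H2-Eb1, one of 0.99. H2-Aa had a lower value than all but 5.15% of its group, H2-Ab1 than all but 8.65% and H2-Eb1 than all but 7.31%. With the offsets all 3 chain genes fell, H2-Aa by 1.45 in log2 units (adjusted p = 5.99e-11, SE 0.09), H2-Ab1 by 1.07 (SE 0.08, adjusted p = 1.745e-11) and H2-Eb1 by 0.97 (SE 0.07, adjusted p = 9.221e-11). Whether the chain genes are called near or below their cWT level thus rests on how the length trend is treated, and with total count scaling they stood at -0.59, -0.51 and -0.62.

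**Figure D3:**
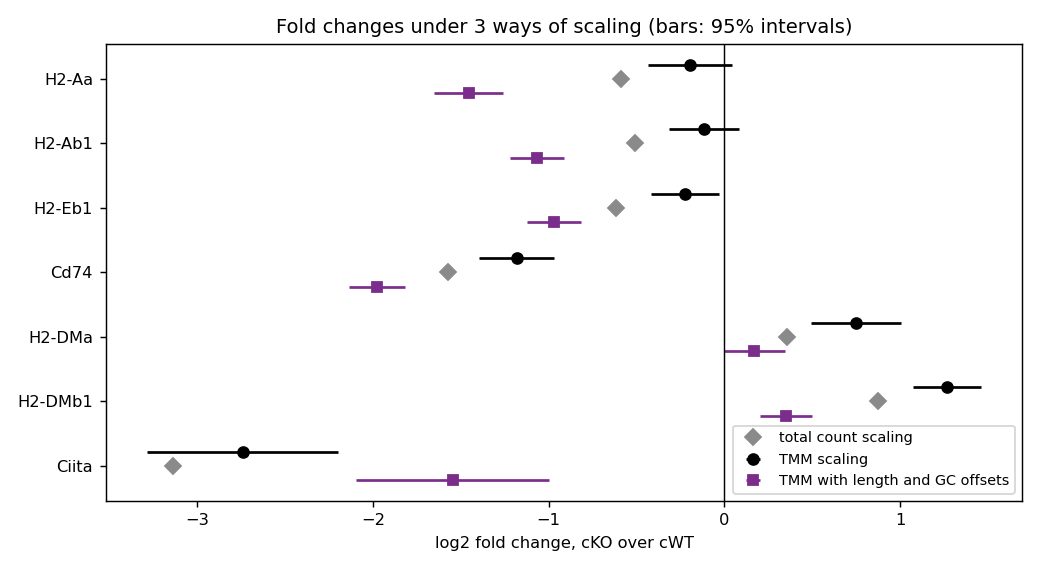
Log2 fold change of cKO over cWT for each gene with TMM scaling (black circles), total count scaling (grey diamonds) and TMM plus the length and GC offsets (purple squares), with 95% intervals as bars where drawn. Cd74 and Ciita lie below 0 in each fit, H2-DMa and H2-DMb1 above 0, and the chain genes move from near 0 to about -1 or lower with the offsets.

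Cd74 (chromosome 18, 60803849 to 60812652) encodes the invariant chain, which guides class II molecules through the cell and blocks their groove until they reach the endosome. Its level was 184, 213 and 222 CPM in cKO, against 458, 498 and 447 CPM in cWT, and the highest cKO library lay far under the lowest cWT library. Cd74 fell by 1.18 in log2 units (adjusted p = 7.345e-09, SE 0.10). No alternative removed the call: the log2 fold change ran from -1.22 to -1.11 when a library was left out, and it was -1.57 with total count scaling and -1.98 with the offsets (SE 0.08, adjusted p = 7.805e-16). Only 1.86% of genes in its length group had a lower log2 fold change.

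Relative to the chains, Cd74 was also lower within each library, a measure that needs no scaling between libraries. There were 99.7, 98.1 and 101 Cd74 counts per 100 H2-Ab1 counts in cKO, against 199, 223 and 204 in cWT. The cKO libraries held close to equal counts of the pair, while in cWT Cd74 was in excess in all libraries. With 3 libraries against 3 the smallest two-sided exact permutation p is 0.10, and this ratio reached it (0.12 after Benjamini-Hochberg adjustment over 12 ratios). Per kilobase Cd74 was the most abundant of the 7 genes in cWT, at 332 ± 19.2 CPM, and in cKO it stood at 146 ± 14.2 CPM, beside H2-DMb1 at 146 ± 7.07 CPM and under H2-Ab1 and H2-Aa, whose libraries overlapped its own (SD, n = 3 each). In cWT the order went on with H2-Aa and H2-Ab1, which overlapped, then H2-Eb1, then H2-DMa and H2-DMb1, which overlapped at 64.1 ± 5.14 and 60.8 ± 2.696 CPM, and last Ciita at 1.36 ± 0.196 CPM (SD, n = 3). In cKO H2-DMa at 108 ± 21.9 and H2-Eb1 at 98.3 ± 4.77 CPM followed, again overlapping, and Ciita was last at 0.201 ± 0.00954 CPM (SD, n = 3).

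H2-DMa (chromosome 17, 34119693 to 34139101) and H2-DMb1 (34153191 to 34160229) encode the chains of the DM molecule, which removes the invariant chain remnant from the class II groove and favours peptides that bind well. H2-DMb1 had 201, 199 and 217 CPM in cKO, against 81.6, 85.6 and 89.1 CPM in cWT. All cKO libraries were above all cWT libraries, with a log2 fold change of 1.27 (adjusted p = 8.003e-10, SE 0.09). H2-DMa had 162, 154 and 220 CPM in cKO, against 96.5, 112 and 110 CPM in cWT, and its rise was 0.75 in log2 units (adjusted p = 2.332e-05, SE 0.12), or 0.59 without cKO replicate 3, its highest library.

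These increases were of the size seen in other transcripts of their length: 34.5% of genes in the length group had a lower log2 fold change than H2-DMa and 68.0% a lower one than H2-DMb1. With the offsets H2-DMb1 was still higher, at 0.35 (SE 0.07, adjusted p = 0.000188), and H2-DMa stood at 0.17 (SE 0.08, 95% interval -0.003 to 0.34) and was not called (adjusted p = 0.0872). H2-DMa counts per 100 H2-DMb1 counts were 80.3, 77.6 and 102 in cKO and 118, 131 and 123 in cWT, without overlap (two-sided exact permutation p = 0.10, the smallest possible). The annotated span of H2-DMa overlaps that of Brd2 on the opposite strand, and without a stated strand setting their reads cannot be told apart where they overlap.

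H2-DMb1 has a close copy, H2-DMb2, with which it shares reads. Their estimated counts were not whole numbers in any library, but their sum was, within 0.01, in all 6, as when reads are divided between the pair. H2-DMb2 received few of them, at 6.33, 4.78 and 5.69 CPM in cKO and 3.25, 2.46 and 5.21 CPM in cWT. Its rise of 0.62 in log2 units (adjusted p = 0.0496, SE 0.27) and the division of reads behind it are uncertain. With the offsets H2-DMb2 stood at -0.28 and was not called (adjusted p = 0.369).

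H2-DMb1 and Cd74 have transcripts of almost the same length, 1404 and 1410 bases, which makes their ratio the plainest contrast in the family. H2-DMb1 counts per 100 Cd74 counts were 110, 93.2 and 97.8 in cKO, against 17.8, 17.2 and 20.0 in cWT. The means were 100.2 ± 8.45 in cKO and 18.3 ± 1.45 in cWT (SD, n = 3 each), a difference of 2.45 on the log2 scale and the largest rise among the 12 ratios. The groups were far apart, with an exact permutation p of 0.10 (two-sided, 0.12 adjusted over the 12 ratios).

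**Figure D4:**
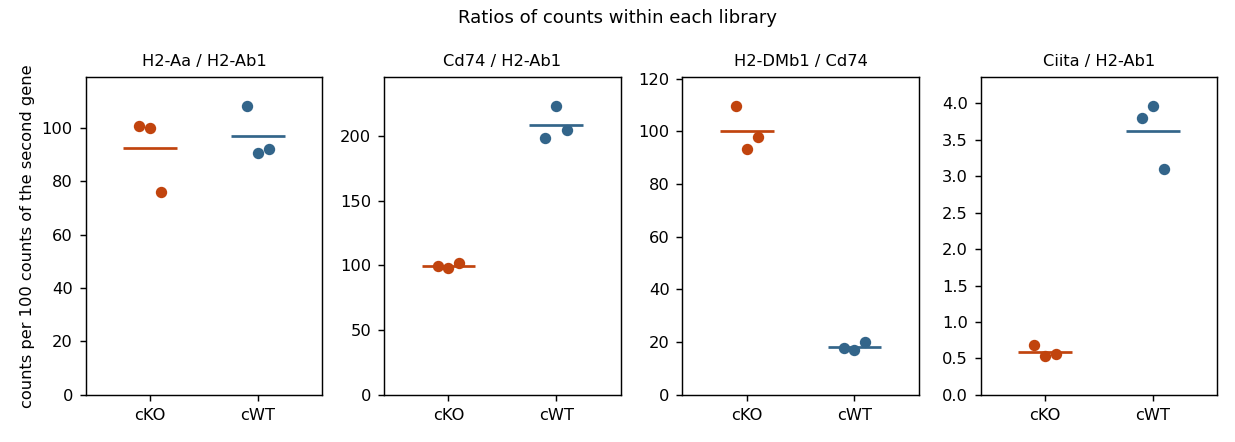
Counts of the first gene per 100 counts of the second within each library, for H2-Aa over H2-Ab1, Cd74 over H2-Ab1, H2-DMb1 over Cd74 and Ciita over H2-Ab1, with cKO in rust red left of cWT in blue and group means as bars; all vertical axes start at 0. The ratio of the I-A chains overlaps between the genotypes, whereas Cd74 and Ciita are lower and H2-DMb1 is higher relative to the second gene in every cKO library.

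Ciita (chromosome 16, 10480014 to 10531064) encodes the activator on which class II transcription depends. It was counted 13, 13 and 16 times in cKO, against 165, 173 and 134 times in cWT, which is 1.27, 1.15 and 1.21 CPM in cKO and 8.78, 8.86 and 6.78 CPM in cWT. The groups lay far apart, though so few reads leave the cKO level imprecise. Ciita fell by 2.74 in log2 units (95% interval -3.28 to -2.20, SE 0.26, adjusted p = 2.531e-08), the largest change of the 7 genes with TMM scaling, while with the offsets that of Cd74 was larger. Its gene-level count pools transcripts from separate promoters, which are known to serve different cell types.

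The Ciita transcript is long (6007 bases), and long transcripts were mostly lower in cKO, with a median log2 fold change of -0.97 in its length group. Only 1.27% of that group had a lower value than Ciita. With the offsets it fell by 1.55 (SE 0.27, 95% interval -2.10 to -0.996, adjusted p = 2.697e-05), and it was called in every fit that left out a library (-2.86 to -2.68). Within libraries there were 0.688, 0.530 and 0.556 Ciita counts per 100 H2-Ab1 counts in cKO, against 3.81, 3.97 and 3.10 in cWT, a ratio that differs in transcript length between its genes. Per 100 Cd74 counts Ciita had 0.592 ± 0.0840 counts in cKO and 1.74 ± 0.203 counts in cWT (SD, n = 3 each). This pair also differs in transcript length, and with the offsets the fall of Ciita was smaller than that of Cd74, so the direction of the ratio rests on how the length trend is treated. In the authors' deposited table the log2 fold changes were -2.75 for Ciita, -1.18 for Cd74, -0.19 for H2-Aa, -0.11 for H2-Ab1, -0.22 for H2-Eb1, 0.75 for H2-DMa and 1.27 for H2-DMb1, with H2-Aa and H2-Ab1 as the members whose deposited adjusted p was above 0.05 (0.165 and 0.301).

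Besides these, 3 other class II genes were tested, H2-DMb2, H2-Oa and H2-Ob, and all 3 were called higher in cKO, against 1 with the offsets. Among all genes tested, 35.6% were called higher, or 29.9% with the offsets. H2-Oa and H2-Ob encode the chains of DO, an inhibitor of DM. H2-Oa had 87.2, 64.8 and 96.0 CPM in cKO, against 39.2, 32.5 and 36.8 CPM in cWT (1.19 in log2 units, adjusted p = 1.678e-07), and with the offsets stood at 0.08 (adjusted p = 0.551). H2-Ob had 63.7, 59.7 and 60.8 CPM in cKO, against 37.5, 35.7 and 36.4 CPM in cWT, and rose by 0.75 in log2 units (adjusted p = 1.5e-06, SE 0.10), or 0.58 with the offsets (adjusted p = 2.316e-06). Of the genes whose promoters are printed above, H2-Eb1 was called lower, H2-Aa was not called, and H2-DMb1, H2-Ob and H2-Oa were called higher. H2-Oa lies within BC051537 on the opposite strand, whose own count was at most 1.02 CPM, and their reads cannot be told apart without a strand setting. H2-Eb2, a further beta chain gene, was at most 0.456 CPM in any library and was not tested.

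Genes of the factors around CIITA moved in both directions, 5 of 12 higher and 5 lower (median log2 fold change -0.01, against -0.02 over all genes tested). Calls over all genes tested were 35.6% higher and 36.5% lower. Rfx5, the DNA-binding subunit of the RFX complex, fell by 1.12 (adjusted p = 5.256e-07) and by 0.61 with the offsets. Creb1, which binds the X2 box, fell by 1.02 (adjusted p = 2.896e-08), or -2.21 with the offsets, and Irf4, an interferon regulatory factor, by 1.91 (adjusted p = 1.503e-07). Rfxank, another RFX subunit, rose by 0.76 (adjusted p = 5.01e-05), and by 1.21 with the offsets. Spi1, which encodes the myeloid factor PU.1, was called at 0.29 (adjusted p = 0.0452) though its libraries overlapped. With the offsets Spi1 was not called, at 0.11 (adjusted p = 0.279). Irf8, a further myeloid factor, was not called at -0.11 (adjusted p = 0.395).

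Interferon gamma is the classical inducer of Ciita. Of 10 genes of its signalling and of the pathways that damp it, 3 were called higher and 6 lower (median -0.36), and with the offsets 3 higher and 2 lower. All genes tested had 35.6% called higher and 36.5% lower, or 29.9% and 27.3% with the offsets. Ifngr1, the ligand-binding receptor chain, had 1846, 1858 and 1659 CPM in cKO, against 889, 749 and 836 CPM in cWT, and rose by a log2 fold change of 1.12 (adjusted p = 3.43e-08). Ifngr2 rose by 0.57. The kinase genes Jak1 and Jak2 fell, by 0.67 and 0.89. With the offsets Ifngr1 and Ifngr2 were still higher, at 0.67 and 0.90. Jak1 was then no longer called (0.05, adjusted p = 0.589), and Jak2 was still lower, at -0.22 (adjusted p = 0.0433). Tgfbr2, a receptor for TGF-beta, which is known to restrain Ciita, fell by 1.34, and by 0.95 with the offsets.

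The 10 genes listed for peptide processing are proteases and helpers that prepare peptides, and Cst3, which encodes an inhibitor of such proteases. Of them 9 were called higher and 1 lower (median 1.11), and with the offsets 7 were higher and 2 lower. Over all genes tested 35.6% were called higher, or 29.9% with the offsets, and in the length group that holds the median length of these genes (1794 bases) 66.0% were. Cst3, the inhibitor gene, rose by a log2 fold change of 1.98 (adjusted p = 7.387e-10), or 0.70 with the offsets. Ctss, the protease that trims the invariant chain in antigen-presenting cells, rose by 1.48 (adjusted p = 4.539e-09), or 0.32 with the offsets (adjusted p = 0.00216). Ctsh rose by 1.41 and Ctsz by 1.39, or 0.60 and 0.65 with the offsets. Sppl2a, the membrane protease that clears the last remnant of the invariant chain, fell by 1.02 (adjusted p = 4.603e-08), and by 0.31 with the offsets. Ifi30, the lysosomal thiol reductase, had opposite signs in the fits, 0.57 and -0.75 with the offsets, both called.

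Of the costimulatory ligands, 2 of 5 tested were higher and 2 lower, against 2 higher and 3 lower with the offsets. Cd86, a ligand of CD28, had 526, 460 and 430 CPM in cKO, against 266, 232 and 251 CPM in cWT (log2 fold change 0.92, adjusted p = 2.553e-07, and 0.61 with the offsets). Cd80, another ligand of CD28, was at 0.10 and was not called (adjusted p = 0.593), but was called lower with the offsets, at -0.74 (adjusted p = 6.98e-05). Cd274, which encodes PD-L1, fell by 0.61, and by 0.43 with the offsets. Of 5 genes of class II traffic, 4 were higher and 0 lower, against 1 higher and 2 lower with the offsets, with the tetraspanin genes Cd63 at 1.91 and Cd9 at 1.01, and with the offsets Cd63 at 0.74 and Cd9 at -0.27, both called. Across all 52 tested genes of these class II lists other than the 7, including 9 class I genes, 30 were called higher and 15 lower. With the offsets 21 were higher and 15 lower, and with total count scaling 20 were higher and 18 lower. The shares over all genes tested were 35.6% higher and 36.5% lower, or 29.9% and 27.3% with the offsets.

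**Figure D5:**
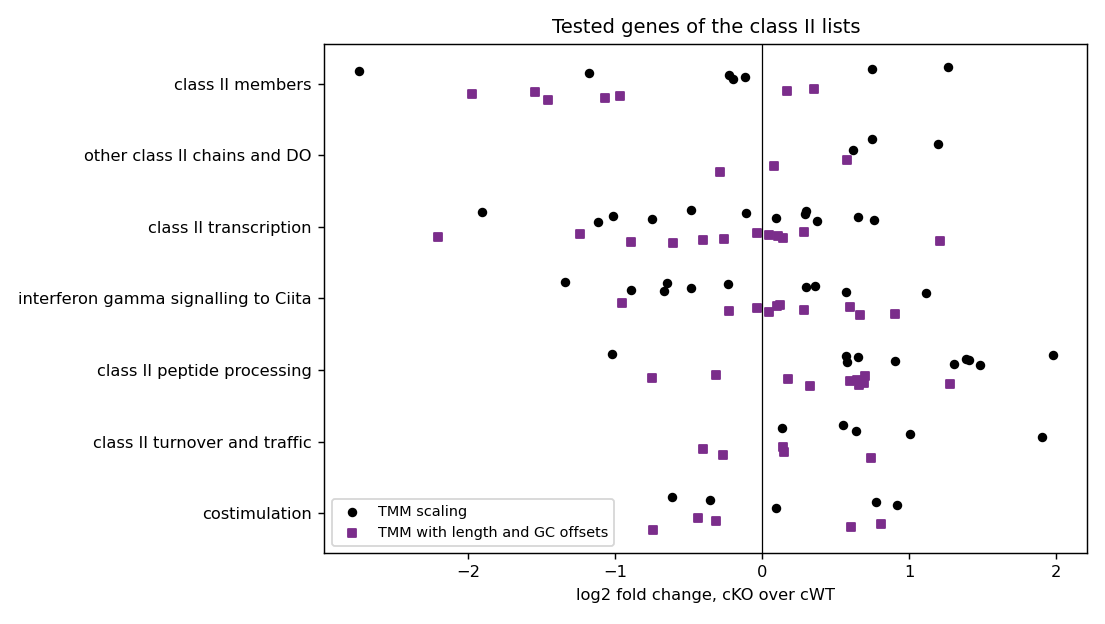
Log2 fold change of cKO over cWT for the tested genes of each class II list, with TMM scaling (black circles) and with the length and GC offsets added (purple squares). The peptide processing genes lie mostly above 0, the transcription genes on both sides, and 5 of the 7 class II members below 0 in both fits.

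Position was shared by 5 of the 7 genes. Their stretch of chromosome 17, from 34092379 to 34341410, holds 10 other genes of the table. Of these 8 were tested, with 5 called higher and 1 lower. Set beside them, 35.6% of all genes tested were called higher and 36.5% lower, or 29.9% and 27.3% with the offsets. The immunoproteasome genes Psmb8 and Psmb9, which serve class I presentation, rose by 1.57 and 1.55, and by 0.93 and 0.64 with the offsets. Their neighbours Tap1 and Tap2, the peptide transporter genes, were not called, at 0.04 and -0.10, and were called with the offsets, at 0.32 and 0.37. With the offsets 6 of the 8 tested neighbours were called higher and 0 lower, while the chain genes of the same stretch fell.

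Other genes were set against the mean profile of the chain genes and Cd74 in log2 CPM over the 6 libraries, each gene centred on its mean. Closest to that mean were Nek7, Rfwd3, Lrig3, Syt11 and Jam2, with root mean square differences of 0.038 to 0.053. These genes had log2 fold changes of -0.46 to -0.40, between those of the chain genes and that of Cd74. Their transcripts have 4016 to 5258 bases, far longer than the chains. For Ciita the closest were Dock6, Efr3b, Mcc, Ltbp4 and Trrap, with differences of 0.086 to 0.15 and transcripts of 5386 to 12479 bases. Such likeness rests mostly on the genotype difference and carries no test.

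The microRNA deleted in these cells, miR-137, pairs with targets through its seed. The mature strand is shown because its seed match was searched in the class II transcripts (RefSeq, GRCm38.p6, chr3:118433901-118433923, plus strand), with the seed in capitals.
mmu-miR-137-3p: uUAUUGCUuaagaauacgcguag
The match AGCAATA was found in the longest annotated 3' UTR of 10.3% of the 16218 genes of the table that have one, and in 0 of the 7 class II genes.

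Cells other than microglia can carry class II, so their markers were read beside these results. The 12 microglial markers summed to 34620 to 39170 CPM in cKO and 37550 to 39920 CPM in cWT, with none at 0 in all libraries. These sums are carried by a few abundant genes, and of the 12 markers 3 were called higher and 6 lower, against 1 higher and 7 lower with the offsets. For this and the lists below, the shares over all genes tested were 35.6% higher and 36.5% lower, or 29.9% and 27.3% with the offsets. Sall1, a microglial transcription factor, averaged 187 ± 18.6 CPM in cKO and 837 ± 76.5 CPM in cWT, and Tmem119 1084 ± 225 CPM in cKO and 426 ± 30.1 CPM in cWT (SD, n = 3 each). Of 11 dendritic cell markers 10 were tested, of which 3 were called higher and 4 lower, against 1 higher and 5 lower with the offsets. The sum of all 11 was 180 to 186 CPM in cKO and 119 to 139 CPM in cWT. Clec10a, a lectin also made by macrophages, made up most of the sum in cKO but not in cWT, at 113, 121 and 114 CPM in cKO and 43.7, 31.7 and 33.1 CPM in cWT. It was called higher in both fits (log2 fold change 1.68, and 0.77 with the offsets). Batf3 and Klrd1 rose by 0.98 and 1.01. With the offsets Batf3 was not called (-0.20, adjusted p = 0.210) and Klrd1 was called lower (-0.82). The defining markers were low, with Xcr1 at most 0.809 CPM, Clec9a at most 1.18 CPM and Flt3 at most 4.78 CPM in any library. Cd209a, a lectin of monocyte-related dendritic cells, was lower, at 6.62, 7.62 and 5.77 CPM in cKO, against 23.4, 18.6 and 20.0 CPM in cWT (log2 fold change -1.63, adjusted p = 4.428e-08, and -2.71 with the offsets), as was the integrin gene Itgax (-1.15, and -0.65 with the offsets).

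Of 12 markers of border macrophages, 6 were called higher and 3 lower, against 4 higher and 4 lower with the offsets. The 12 summed to 1234 to 1411 CPM in cKO and 2037 to 2213 CPM in cWT. Stab1, with a transcript of 7999 bases, was the largest part of that sum, at a mean of 328 CPM in cKO and 1139 CPM in cWT. The long transcripts of Mrc1 and Stab1 were lower and the short ones of Pf4 and Folr2 higher. With the offsets Pf4 was lower (-0.52), Stab1 lower (-0.19) and Folr2 higher (0.24), and Mrc1 was at -0.09 and was not called (adjusted p = 0.341). Monocyte markers summed to 1155 to 1482 CPM in cKO and 905 to 1029 CPM in cWT. Of the 8, 5 were called higher and 2 lower, against 0 higher and 5 lower with the offsets. Ccr2, their chemokine receptor, fell by 1.45, and by 0.74 with the offsets. The 8 B cell markers in the table summed to 52.4 to 59.5 CPM in cKO and 42.4 to 45.1 CPM in cWT, with Pax5 at 0 counts in every cKO library and in cWT replicates 2 and 3. Of these 4 were tested, with 1 called higher and 1 lower, against 0 higher and 1 lower with the offsets. Cd79b, the largest part of the sum in cKO, averaged 40.2 CPM in cKO and 17.3 CPM in cWT (log2 fold change 1.22, and 0.09 with the offsets). Ebf1 fell by 1.46, and by 0.58 with the offsets. The part of such cells in the class II levels was not tested, and in these bulk libraries fewer cells of a type and less RNA per cell cannot be told apart.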

How the data were processed

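The authors deposited estimated counts per gene symbol, 1 column per library. STAR 2.7.9a, RSEM and DESeq2, with builds GRCm38 and mm10, are listed in the submitters' processing notes without roles. No source used here names the annotation or the strand setting. In each column 5.5% to 5.85% of values were not whole, and counts were rounded. The deposited comparison of the genotypes holds, per the file headers, a base mean (a signal averaged over scaled libraries), log2 fold changes and their standard errors, a Wald statistic (a score), and p-values with adjusted p-values; its log2 values and adjusted p-values were copied. Libraries of a genotype differed beyond counting noise (chi-square per degree of freedom 3.76 to 18.2), so none was treated as a duplicate.

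Genes were tested two-sided with edgeR 4.0.16 in R 4.3.3 (quasi-likelihood, robust, TMM, filterByExpr with a minimum count of 10, which set aside 3969 genes), with Benjamini-Hochberg adjustment over 13490 genes. The 95% intervals come from the same fit. Offsets were fitted per library as splines of log transcript length and GC content, from GENCODE M21, whose principal transcript need not be the one expressed. A length was found for 99.0% of genes. DESeq2 1.42.0, voom from limma 3.58.1, other scalings and filters, the replicate number as a block and each library left out were the alternatives. Some of the fits were tested on simulated data that held few changed genes and no trend with length or GC content. Such data cannot show how the fits act under the trends of these libraries. The members, gene lists and offsets were chosen with earlier results of these data known. The ratio pairs and the stretch of chromosome 17 were chosen after values were seen. Of each list, called genes and those of smallest p were named; Irf8, Cd80, Tap1 and Tap2, which were not called, were chosen after their values were seen. Marker genes were named where low or moving with genotype, and likeness was ranked by root mean square difference of log2 CPM (prior count 2) among genes of average log2 CPM of at least 2. Items withheld for evaluation are not reported here.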

Additional observations from a re-analysis of the deposited data

How the results depend on the processing

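Cd74, Ciita and H2-DMb1 kept their direction and their side of the threshold under all 16 alternatives tried. The count of called genes, 9729, ran from 7665 with the offsets to 10073 with total count scaling, and from 9116 to 9717 when a library was left out. Lower calls outnumbered higher ones (4926 and 4803), but DESeq2 (4727 and 4794), RLE (4840 and 4882) and upper-quartile scaling (4655 and 5042) and the offsets (3659 and 4006, or 3691 and 4029 with the replicate block) turned that order. H2-Aa, not called at -0.20, was called with total count scaling (-0.59), with the offsets (-1.45), with the replicate block (-0.20, adjusted p = 0.0465) and with both offsets and block (-1.46), and ran from -0.288 to -0.0948 when a library was left out. H2-Ab1, at -0.12, was called with total count scaling (-0.51), with the offsets (-1.07) and with offsets and block (-1.07), and ran from -0.145 to -0.0461. H2-Eb1 lost its call with RLE scaling (-0.20, adjusted p = 0.0530) and upper-quartile scaling (-0.16, adjusted p = 0.118), and ran from -0.28 to -0.19. H2-DMa lost its call with the offsets (0.17), though not with offsets and block (0.16, adjusted p = 0.0484). The cause was not tested. Replicate numbers pair no libraries by the labels. Deviations of same-numbered libraries correlated at 0.0985, 0.0335 and 0.0882, each the best match of its cKO library, and with the replicate block 9911 genes were called in place of 9729. The 13 to 16 Ciita counts of the cKO libraries limit its precision.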
